A study of Mus musculus with 8 samples.

Results

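The lysyl oxidase family comprises 5 genes in the mouse, Lox and its paralogs Loxl1, Loxl2, Loxl3 and Loxl4, and these were the genes chosen here, by symbol, from the 53465 genes of the count table. All 5 were among the 14369 genes that passed the filter on low counts. MSCs (mesenchymal stem cells, which give rise to osteoblasts, adipocytes and chondrocytes) were taken from the hind limbs of wild-type male C57BL/6N mice of 3 to 5 months and grown at 2% oxygen. Cells that were CD45-, Ter-119-, Sca-1+ and CD140a+ were sorted by flow cytometry and divided, so that 4 hypoxia samples stayed at 2% oxygen and 4 normoxia samples were moved to 21% oxygen for a week. No sample carried a genetic change or a drug, and the number of animals behind each sample is not given in the sources used here.

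Lysyl oxidases are secreted, copper-dependent amine oxidases. They turn lysine and hydroxylysine side chains of collagen and elastin into reactive aldehydes, which then condense into the covalent cross-links that give bone matrix, tendon and elastic tissue their strength. The reaction consumes molecular oxygen. Lox is also a textbook target of the hypoxia-inducible factors (HIFs), the transcription factors that accumulate at low oxygen, and is induced by TGF-beta in many stromal cells. Lox and Loxl1 are made with a propeptide that the protease Bmp1 can remove, whereas Loxl2, Loxl3 and Loxl4 carry scavenger receptor cysteine-rich domains ahead of a similar catalytic end.

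Total counts were 25132141 for hypoxia replicate 1 and between 12898291 and 13433824 for the other 7 samples. All 10 MSC marker genes were above the filter, including the 2 sort markers Ly6a (Sca-1, 4636 to 11995 counts) and Pdgfra (CD140a, 1928 to 4011 counts). Of the blood markers, Hbb-bt, Hba-a1 and Cd3e were at 0 in every sample, but macrophage genes were present, with 4244 to 9578 counts of Lyz2, 899 to 2004 of Adgre1 and 140 to 263 of Ptprc, the gene of CD45. The summed level of the blood markers was 444.7 to 893 CPM (read counts scaled to a common library total) in hypoxia and 593.7 to 1117 CPM in normoxia, and Lyz2 was the most counted of them. Of the 6 blood markers tested, Lyz2 alone passed without the replicate block (log2 change 0.56, limma-trend, adjusted p = 0.022). Csf1r (-0.59), Itgam (-0.46) and Cd68 (-0.28) were lower with the block (adjusted p = 6.7e-09, 0.0011 and 0.0028), and the median of the 6 was -0.20. Endothelial markers summed to at most 2.57 CPM, with Emcn and Tie1 at 0. Osteoblast markers summed to 481.7 to 644.1 CPM in hypoxia and 611.1 to 820.5 CPM in normoxia, but the median change of the 5 tested was -0.44. Spp1 rose by 0.54 (limma-trend, adjusted p = 0.0024), Alpl fell by 0.48 (adjusted p = 0.0083), and Ibsp (-0.61), Dmp1 (-0.44) and Bglap2 (-0.27) did not pass, though Ibsp did with the block (adjusted p = 6.5e-05). Dmp1, whose own value is the median of the 5, had only 0 to 8 counts a sample, and Bglap2 had 8 to 22. The part of these other cells in the values below was not tested.

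The family shares a histidine-rich motif that binds the catalytic copper, and the 33 bases that encode it are printed for the 4 paralogs Loxl1 to Loxl4 to show how alike and how distinct their transcripts are. Each stretch was read from a GENCODE M21 transcript sequence and placed on GRCm38 by its exons. Each crosses an exon junction: Loxl1 from exons 3 and 4 of 7 (chr9:58293720-58294381, minus strand), Loxl2 from exons 10 and 11 of 14 (chr14:69682316-69689037, plus strand), Loxl3 from exons 10 and 11 of 14 (chr6:83049995-83050125, plus strand) and Loxl4 from exons 11 and 12 of 15 (chr19:42598807-42599899, minus strand). Capitals mark the bases that are the same in all 4 sequences.
Loxl1: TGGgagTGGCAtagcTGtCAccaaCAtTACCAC
Loxl2: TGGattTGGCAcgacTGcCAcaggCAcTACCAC
Loxl3: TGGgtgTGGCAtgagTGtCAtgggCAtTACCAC
Loxl4: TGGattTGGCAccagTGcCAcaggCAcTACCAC
Of the 33 bases, 20 were shared by all 4. Loxl2 and Loxl4 differed at 2 bases, and Loxl3 differed from each of the others at 8. The translated catalytic ends, from 50 residues before the motif to the stop, fell into the same 2 branches as the domains: identity was 76.4% between Lox and Loxl1, 66.3% to 70% among Loxl2, Loxl3 and Loxl4, and 51.1% to 57.2% across the branches. The longest exact run shared by the transcripts of any 2 members was 32 bases, between Lox and Loxl1, so a longer read could not match these transcripts of 2 members exactly.

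The 5 genes went different ways when oxygen was raised. Loxl1 fell to 0.588 times its hypoxia mean, while Loxl3 rose to 1.605 times and Loxl4 to 1.47 times theirs. Lox, by far the most abundant member, and Loxl2 did not pass the test. Thus 1 member was lower and 2 were higher at an adjusted p under 0.05 (limma-trend over 14369 genes, Benjamini-Hochberg), where 16.5% of all tested genes were lower and 18.0% were higher. Because the RNA came from whole cell populations, a smaller number of cells of some kind and less RNA per cell cannot be told apart for any of these values. Changes are given below as normoxia minus hypoxia on a log2 scale, with CPM scaled by TMM factors and a prior count of 3.

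**Figure D1:**
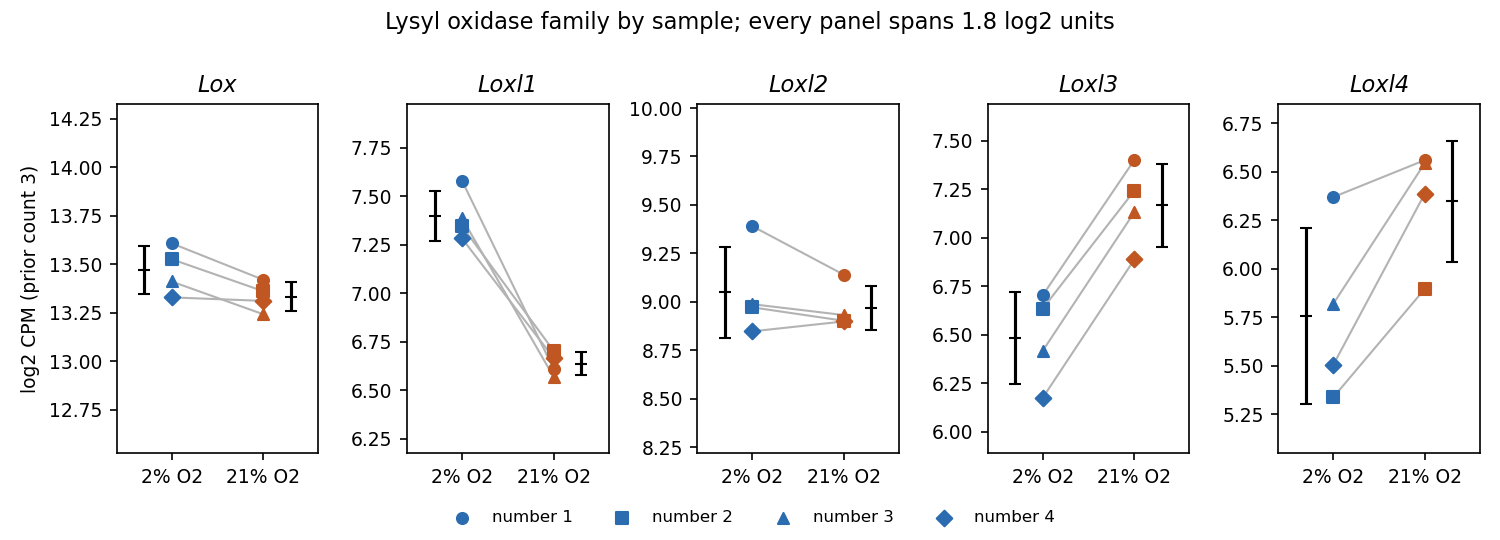
Levels of the 5 lysyl oxidase genes in each sample (vertical axis, log2 CPM with a prior count of 3, each panel spanning the same number of log2 units) at 2% and 21% oxygen (horizontal axis), with symbols for the replicate numbers 1 to 4, lines joining equal numbers, and black bars for the mean ± SD of 4 samples. Loxl1 is lower and Loxl3 higher in every normoxia sample than in every hypoxia sample, whereas the groups overlap for Lox, Loxl2 and Loxl4.

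Lox (ENSMUSG00000024529, chromosome 18, 52516067 to 52529867, minus strand) encodes the founding enzyme, which cross-links fibrillar collagens and elastin. It measured 12490, 11800, 10890 and 10290 CPM in hypoxia replicates 1 to 4. In normoxia it measured 10960, 10520, 9685 and 10160 CPM. The 2 highest values were hypoxia replicates 1 and 2 and the lowest was normoxia replicate 3, but normoxia replicates 1 and 2 lay above hypoxia replicate 4, so the groups overlapped. On the log2 scale the means were 13.47 ± 0.12 in hypoxia and 13.33 ± 0.08 in normoxia (SD over 4 samples each), a difference of -0.14 with a 95% confidence interval of -0.38 to 0.11 (limma-trend, adjusted p = 0.38). The interval covers no change, a fall of up to 0.38 and a rise of up to 0.11. Within equal replicate numbers Lox was lower in normoxia in all 4, by between 0.018 (number 4) and 0.19 (number 1), and a block for the replicate number gave an adjusted p of 0.11.

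The Lox value depended on a correction for base composition. Its longest transcript has 43.9% GC, against 51.7% to 61.0% for those of the 4 paralogs. When a smooth trend on GC content and transcript length was removed from each sample, the Lox change was -0.31 (limma-trend, adjusted p = 0.023). Adding the replicate block brought the adjusted p to 3.5e-05. In these corrected fits 14.5% and 21.5% of genes were lower in normoxia, respectively. Such a correction also removes real differences that go with these properties, and these were the only 2 of 20 alternative settings in which Lox passed the test.

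Loxl1 (ENSMUSG00000032334, chromosome 9, 58287738 to 58313186, minus strand) is the paralog most tied to elastic fibres, where it binds fibulin-5, the product of Fbln5. Its levels were 191.2, 162.5, 167.3 and 155.6 CPM in hypoxia replicates 1 to 4. The normoxia replicates had 97.5, 104, 94.76 and 101.4 CPM. Every normoxia sample was below every hypoxia sample, with a gap between 104 and 155.6 CPM and little spread within normoxia. The log2 mean was 7.40 ± 0.13 in hypoxia and 6.64 ± 0.06 in normoxia (SD over 4 samples each), so Loxl1 fell by 0.76 (standard error 0.068, limma-trend, adjusted p = 4.8e-05). In equal replicate numbers it was lower by 0.62 to 0.97. Loxl1 has the highest GC content of the family, 61.0%, and with the GC and length correction the fall was -0.56 (limma-trend, adjusted p = 0.00034). All 20 alternative settings called the fall, with changes of -0.80 to -0.56.

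Loxl2 (ENSMUSG00000034205, chromosome 14, 69609068 to 69695834, plus strand) encodes the enzyme known for cross-linking the collagen IV network of basement membranes. Hypoxia replicates 1 to 4 had 670.9, 501.9, 507.6 and 460.7 CPM. Normoxia replicates 1 to 4 had 563.9, 478.3, 488.2 and 477.3 CPM. Replicate 1 was the highest of its group at either oxygen level, and the other 6 samples lay between 460.7 and 507.6 CPM with no order by group. The log2 difference was -0.08 with a 95% confidence interval of -0.31 to 0.14 (limma-trend, adjusted p = 0.59). Its sign turned without hypoxia replicate 1 (0.03, adjusted p = 0.76) and with library totals alone as the scale (0.0071, adjusted p = 0.96), and none of the 20 alternatives called it (adjusted p from 0.21 to 0.96). Loxl2 shared 301 exon bases with the antisense gene Gm27177, whose reads cannot be told apart from its own if the counting ignored strand, which is not stated.

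Loxl3 (ENSMUSG00000000693, chromosome 6, 83034173 to 83052562, plus strand) encodes an enzyme needed for the cartilage and palate of the mouse embryo. It had 104, 99.16, 85.25 and 72.04 CPM in hypoxia replicates 1 to 4. The corresponding normoxia samples had 168.9, 151.3, 140.1 and 118.2 CPM. The lowest normoxia sample was above the highest hypoxia sample, and the samples with the same number kept the same order at either oxygen level. The log2 mean was 6.48 ± 0.24 in hypoxia and 7.17 ± 0.22 in normoxia (SD over 4 samples each), so Loxl3 rose by 0.68 (standard error 0.12, limma-trend, adjusted p = 0.0013). The 4 differences between equal numbers were nearly alike, 0.61 to 0.72, and the adjusted p under the replicate block was 3.2e-10. Among all tested genes 1107 had a change at least as large in either direction.

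All 20 alternatives called the rise of Loxl3, with changes of 0.58 to 0.77. Loxl3 overlaps Htra2, a mitochondrial protease gene on the opposite strand, over 535 exon bases, which is 11.6% of its exon sequence. Htra2 itself had a log2 mean of 4.43 ± 0.18 in hypoxia and 4.31 ± 0.04 in normoxia (SD over 4 samples each) and a change of -0.11 (limma-trend, adjusted p = 0.39). Whether the counting used strand is not stated, so reads from the shared bases cannot be told apart, and their part in the Loxl3 value was not tested.

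Loxl4 (ENSMUSG00000025185, chromosome 19, 42593982 to 42612813, minus strand) is the least abundant member and encodes a further enzyme of the scavenger receptor branch. Hypoxia replicates 1 to 4 had 82.47, 40.2, 56.21 and 45.15 CPM. Normoxia replicates 1 to 4 had 94.16, 59.35, 93.17 and 83.5 CPM. The groups overlapped, since hypoxia replicate 1 lay among the normoxia samples and normoxia replicate 2 among the hypoxia samples. The log2 mean was 5.76 ± 0.45 in hypoxia and 6.35 ± 0.31 in normoxia (SD over 4 samples each), the widest spread in the family, and the change was 0.59 with a 95% confidence interval of 0.16 to 1.02 (limma-trend, adjusted p = 0.038).

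The Loxl4 call was close to the threshold and was made in 10 of 20 alternatives. It was not made by the edgeR quasi-likelihood test (adjusted p = 0.055), DESeq2 (adjusted p = 0.12), limma-voom (adjusted p = 0.054) or limma-trend without the filter (adjusted p = 0.051). Leaving out 1 sample ended it in 6 of 8 cases: without hypoxia replicate 2, 3 or 4 the changes were 0.45, 0.61 and 0.51 (limma-trend, adjusted p = 0.10, 0.071 and 0.11), and without normoxia replicate 1, 3 or 4 they were 0.51, 0.52 and 0.57 (limma-trend, adjusted p = 0.092, 0.10 and 0.081). Within equal numbers Loxl4 was higher in normoxia in all 4, by 0.19, 0.56, 0.73 and 0.88 for numbers 1 to 4. With the replicate block, under which 23.3% of all genes were higher and 22.7% lower, the 95% confidence interval was 0.43 to 0.75 (limma-trend, adjusted p = 1.3e-06).

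**Figure D2:**
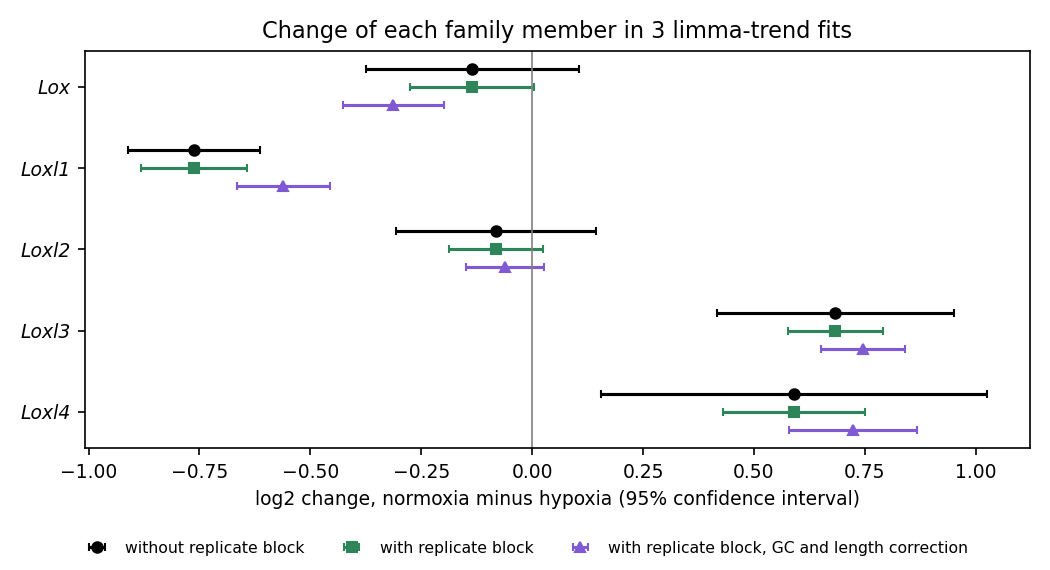
Log2 change of each lysyl oxidase gene (horizontal axis, normoxia minus hypoxia, points with 95% confidence intervals from limma-trend over 8 samples) without the replicate block, with it, and with the block plus a correction for GC content and transcript length. Loxl1 lies below 0 and Loxl3 and Loxl4 above 0 in all 3 fits, the interval of Loxl2 crosses 0 in all 3, and that of Lox lies wholly below 0 only with the correction.

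Across all genes tested, the groups of 4 did not overlap for 32.6%, and among the family this was so for 2 of 5 genes, Loxl1 and Loxl3. The median log2 change over all genes was 0.0049, with quartiles of -0.23 and 0.24, so Loxl1, Loxl3 and Loxl4 lay outside the middle range of the table and Lox and Loxl2 within it. A change of at least 0.5 in size was seen in 17.3% of tested genes.

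Whether members changed by different amounts was asked from the log2 ratio of 2 members within each sample, which does not depend on how libraries are scaled. Of the 10 pairs, 7 differed between the oxygen levels (two-sided exact permutation test over 70 assignments, p = 0.029, Benjamini-Hochberg adjusted over 10 pairs p = 0.041). A p of 0.029 is the smallest that 4 against 4 samples can give. The pairs share members, so they are not independent. All of the 7 but Loxl2 to Loxl4 include Loxl1 or Loxl3, the members whose own groups did not overlap. How often ratios of other genes differ in this way was not measured. The shift was widest between Loxl1 and Loxl3. As Loxl1 was lower and Loxl3 higher in every normoxia sample, the smallest p was fixed in advance for this pair. Its test thus adds nothing to the 2 single-gene results. The log2 ratio of Loxl1 to Loxl3 was 0.92 ± 0.17 in hypoxia and -0.53 ± 0.23 in normoxia (SD over 4 samples each), which turned from 0.71 to 1.11 in the hypoxia samples to -0.79 to -0.22 in the normoxia samples. Loxl1 was thus the more counted gene of this pair at 2% oxygen and Loxl3 at 21%.

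Loxl1 also fell against Lox, its closest relative in sequence: the log2 ratio of Lox to Loxl1 was 6.07 ± 0.07 in hypoxia and 6.70 ± 0.08 in normoxia (SD over 4 samples each). Against Loxl2 and Loxl4 the ratio of Loxl1 fell by 0.68 and 1.35. The ratio of Loxl2 fell by 0.76 against Loxl3 and by 0.67 against Loxl4, and that of Lox fell by 0.82 against Loxl3. The other 3 ratios did not pass. Lox to Loxl4 differed by -0.73 (exact permutation p = 0.057, adjusted p = 0.071), Lox to Loxl2 by -0.05 (exact permutation p = 0.51, adjusted p = 0.57), and Loxl3 to Loxl4 by 0.09 (exact permutation p = 0.71, adjusted p = 0.71). Within equal replicate numbers all 4 differences had the same sign for 8 of the 10 ratios, but a sign-flip test of 4 pairs cannot give an exact p under 0.125, so none can pass when paired.

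To compare levels between genes, CPM was divided by the length of the longest transcript in kilobases. By this measure Lox was the 12th most abundant of 14369 genes, with 2397 ± 205 CPM per kilobase in hypoxia and 2179 ± 114 in normoxia (SD over 4 samples each). By counts alone it ranked 5, and it held 1.00% to 1.19% of all counts in a sample. Loxl2 came next at rank 528 with 100.7 ± 17.5 and 94.4 ± 7.82 CPM per kilobase. In either group every Lox value was above every Loxl2 value, and every Loxl2 value above every Loxl1 value. Loxl1 had 51.3 ± 4.70 CPM per kilobase in hypoxia and 30.1 ± 1.24 in normoxia. Loxl3 had 21.99 ± 3.52 and 35.3 ± 5.17, and Loxl4 had 15.0 ± 5.05 and 22.1 ± 4.33.

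The order of the lower members therefore differed by oxygen level. In hypoxia Loxl1 stood above Loxl3 in every sample, and Loxl3 (17.6 to 25.4 CPM per kilobase) overlapped Loxl4 (10.8 to 22.1). In normoxia Loxl3 (28.9 to 41.2) overlapped Loxl1 (28.7 to 31.5), and both were above Loxl4 (15.9 to 25.2). Using the length of all exons in place of the longest transcript moved each of the 10 group means by less than its SD. Which transcripts the cells used was not measured.

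Summed over the family, the level was 2334 to 2866 CPM per kilobase in hypoxia and 2223 to 2515 in normoxia. Lox made up 92.7% ± 0.59 of this sum in hypoxia and 92.3% ± 0.41 in normoxia (SD over 4 samples each). Without Lox, the sums were 163.5 to 231.6 and 171.7 to 202 CPM per kilobase, so the ranges of the 2 groups overlapped. The remainder was made up differently in the samples of each group. The share of Loxl1 was 27.3% ± 1.63 in hypoxia and 16.7% ± 1.65 in normoxia. That of Loxl3 was 11.7% ± 1.28 and 19.4% ± 1.92, and that of Loxl4 7.80% ± 1.47 and 12.1% ± 2.08. Loxl2 kept the largest share, 53.2% ± 0.89 and 51.9% ± 0.63. These shares are a description, given without a test.

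**Figure D3:**
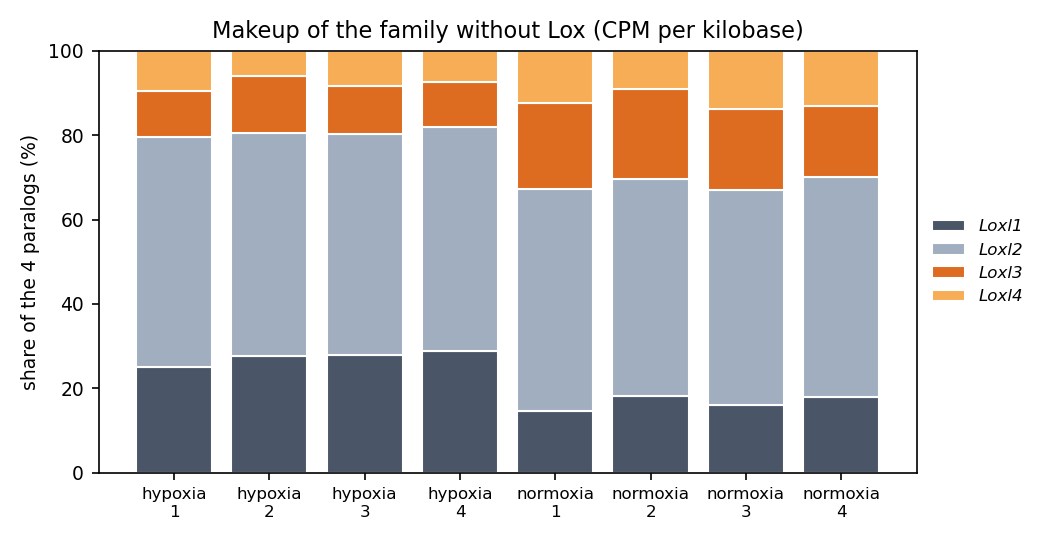
Share of each of the 4 paralogs Loxl1 to Loxl4 in their summed level (vertical axis, percent of CPM per kilobase of longest transcript) in each of the 8 samples (horizontal axis), as stacked bars that add to 100%. Loxl1 spans 25.04% to 28.9% in the hypoxia samples and 14.6% to 18.1% in the normoxia samples, while Loxl2 spans 51.1% to 54.5% over all samples.

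Among the substrates of these enzymes, more genes fell than rose in normoxia. Of 14 collagen and elastin genes, 5 fell and 1 rose (limma-trend, adjusted p under 0.05), where 16.5% of all tested genes fell and 18.0% rose, and the median log2 change was -0.28 against 0.0049 over all genes. With the replicate block, under which 22.7% of all genes were lower and 23.3% higher, 9 fell and 2 rose. With the GC and length correction, under which 14.5% of all genes were lower and 15.5% higher, the split was 3 lower (Col1a1, Col11a2 and Eln) and 2 higher (Col3a1 and Col5a2). Eln, which encodes elastin, had 12 to 282 counts and fell from 3.53 ± 1.04 to 1.14 ± 0.70 log2 CPM (change -2.39, limma-trend, adjusted p = 0.0019). Col1a1, the main collagen of bone, fell by 0.74 (standard error 0.16, adjusted p = 0.0038) and Col11a2 fell by 1.01 (adjusted p = 0.00092). Col5a2, which encodes a chain of the fibril-regulating collagen V, rose by 0.43 (adjusted p = 0.0063). Col1a2 had a change of -0.34 (adjusted p = 0.078, with the block 0.0015) and Col3a1 one of 0.22 (adjusted p = 0.14, with the block 0.013). Scaled by library totals alone, these 14 genes together took 102600 to 110500 CPM in hypoxia and 80770 to 87920 CPM in normoxia. The sums did not overlap between the groups, as was so for 32.6% of single genes. Col1a1 and Col1a2, at 15.69 and 15.02 log2 CPM in hypoxia, were far above the next gene, Col3a1 at 12.93. The sum thus mostly follows Col1a1 and Col1a2, both lower in every normoxia sample than in every hypoxia sample.

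Scaffold proteins that hold lysyl oxidases on the matrix and proteases that activate them were taken as 1 list. Of 19 such genes 18 were tested, 9 fell and 1 rose (16.5% and 18.0% of all genes), with a median of -0.27. With the GC and length correction 7 were lower and 3 higher (14.5% and 15.5% of all genes). The falls included the microfibril genes Fbn2 (-2.13, limma-trend, adjusted p = 6.0e-05), Mfap2 (-1.05, adjusted p = 0.00014) and Fbn1 (-0.66, adjusted p = 0.00073), on which elastic fibres are built. Fn1, which encodes fibronectin, a binding partner of Lox, fell by 0.59 (standard error 0.14, adjusted p = 0.0078). Fbln5, the partner of Loxl1, fell by 0.55 (adjusted p = 0.00011) and was named here after its value was seen. Of the proteases that can release the propeptide, Bmp1 had a change of 0.16 (adjusted p = 0.065, with the block 0.019), which was 0.29 with the GC and length correction (adjusted p = 0.0024), and the related Tll1, with 53 to 186 counts, rose by 0.71 (adjusted p = 0.016). Tll2 was at 0 in every sample.

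Hydroxylation of lysine decides which cross-links a lysyl oxidase can form. Of 17 lysyl and prolyl hydroxylation genes 16 were tested, 3 rose and 4 fell, shares close to those of all genes (18.0% and 16.5%), with a median of -0.03. Without normoxia replicate 3 the number called was 3 in place of 7, and the share of all genes called in that fit is not given here. With the replicate block 5 rose and 7 fell (23.3% and 22.7% of all genes). With the GC and length correction 5 were higher and 3 lower (15.5% and 14.5% of all genes). Plod2, which hydroxylates the telopeptide lysines of collagen and is a HIF target in many cells, rose by 0.61 (standard error 0.090, limma-trend, adjusted p = 0.00043). Plod1, which acts on the helix, fell by 0.42 (adjusted p = 0.00025). P3h3 and P3h1, of the prolyl 3-hydroxylase family, rose by 0.24 and 0.22 (adjusted p = 0.022 and 0.015), whereas P3h2 fell by 0.51 (adjusted p = 0.026) and Ppib, a folding enzyme that works with P3h1, fell by 0.33 (adjusted p = 0.0066). P4ha1, a prolyl 4-hydroxylase subunit, had a change of 0.01 (adjusted p = 0.88).

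Lysyl oxidases receive copper in the secretory pathway from the pump Atp7a, which had a change of 0.14 (limma-trend, adjusted p = 0.21). Among 14 copper supply genes 13 were tested, 1 rose and 2 fell (18.0% and 16.5% of all genes), with a median of -0.05. With the replicate block 2 rose and 3 fell (23.3% and 22.7% of all genes). With the GC and length correction 2 were higher and 2 lower (15.5% and 14.5% of all genes), and Atox1 was 1 of the higher (0.30, adjusted p = 0.0040). Without block or correction the genes called were all metalloreductases. Steap2 rose by 0.56 (adjusted p = 0.0029), while Steap3 fell by 0.40 (adjusted p = 0.018) and Steap4 fell by 1.22 (adjusted p = 0.015). Of 12 genes for other copper enzymes 8 were tested, and again 1 rose and 2 fell (18.0% and 16.5% of all genes), with a median of 0.01. With the replicate block 2 rose and 2 fell (23.3% and 22.7% of all genes). The GC and length correction gave 1 higher and 2 lower (15.5% and 14.5% of all genes). Aoc3, which encodes a copper amine oxidase of another fold, fell from 6.23 ± 0.22 to 4.72 ± 0.43 log2 CPM (adjusted p = 0.00013). The superoxide dismutase Sod1 fell by 0.26 (adjusted p = 0.0099) and the secreted Sod3 rose by 0.43 (adjusted p = 0.0020).

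In a list of 14 other HIF targets, 11 fell in normoxia (limma-trend, 16.5% of all genes), with a median of -0.42. The remaining 3 were Vegfa (-0.06), Adm (-0.08) and Car12 (0.08). The list did not hold every such gene. Plod2, given above as a HIF target in many cells, rose by 0.61 (limma-trend, adjusted p = 0.00043). Car9, a carbonic anhydrase switched on by HIF, fell from 5.21 ± 0.25 to 2.87 ± 0.30 log2 CPM (change -2.34, adjusted p = 9.8e-06). Egln3, a prolyl hydroxylase that marks HIF for breakdown, fell by 0.91 (adjusted p = 0.00020), and Ankrd37, with 8 to 27 counts, fell by 0.80 (adjusted p = 0.027).

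Of 12 genes of the TGF-beta axis, 5 rose and 3 fell (18.0% and 16.5% of all genes), with a median of 0.10. By limma-trend Ccn2, a classic TGF-beta target, rose by 1.04 (adjusted p = 0.0011). Tgfbi rose by 0.42 (adjusted p = 0.024). Acta2 and Tagln, contractile genes that TGF-beta also induces, fell by 0.49 and 0.42 (adjusted p = 0.0029 and 0.022), and Tgfb1, a ligand, fell by 0.46 (adjusted p = 0.013). The number called was 5 without hypoxia replicate 2, 4 without hypoxia replicate 4 and 4 without normoxia replicate 3, in place of 8. The shares of all genes called in those smaller fits are not given here, so these drops are not particular to the list.

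**Figure D4:**
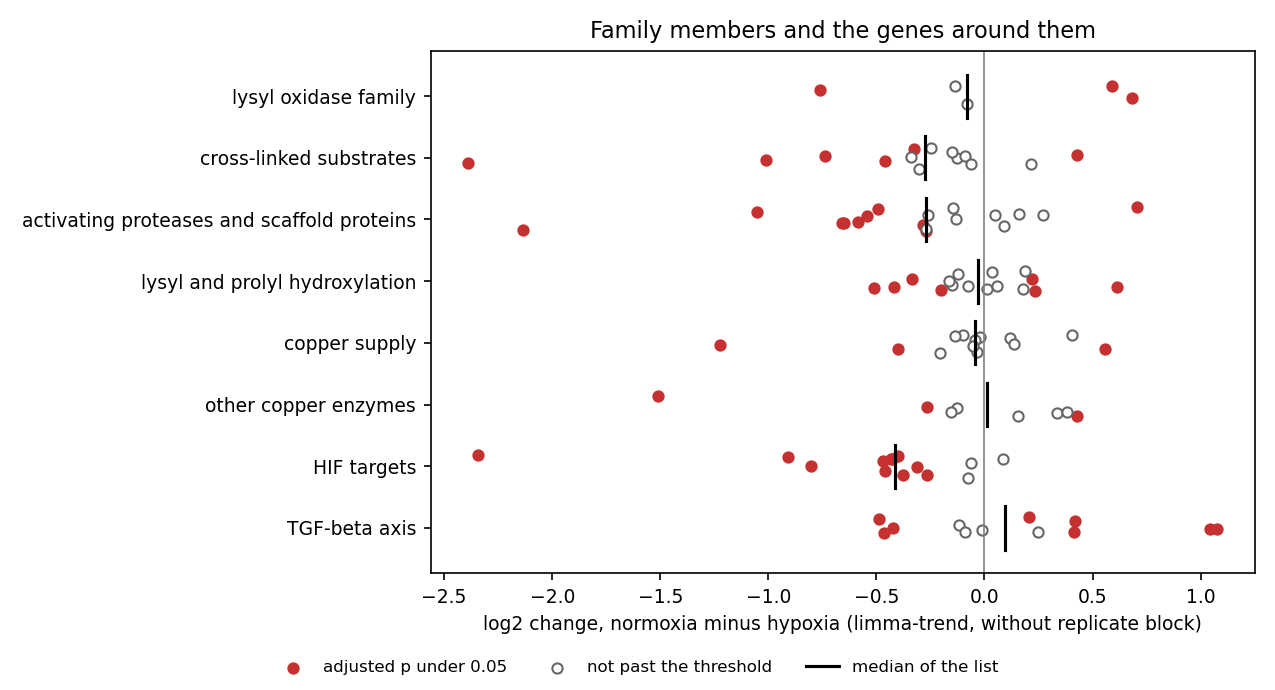
Log2 change (horizontal axis, normoxia minus hypoxia, limma-trend without the replicate block) of every tested gene in the lysyl oxidase family and in 7 lists around it, 1 point a gene, filled where the adjusted p is under 0.05, with a black line at the median of each list. The family spreads to either side of 0, the medians of substrates and scaffold proteins lie at -0.28 and -0.27, and that of the HIF targets lies at -0.42.

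Genes with the most similar profile were found for each member as those with the smallest root mean square difference in centred log2 CPM over the 8 samples, among 9395 genes with a mean log2 CPM of at least 3. Nearest to Loxl1 were Lmf2, Trib3 and Slc6a9 (0.088, 0.090 and 0.10), all of them lower in normoxia. Nearest to Loxl3 were Pxylp1, Knop1 and Ccdc25 (0.063, 0.068 and 0.083), all higher in normoxia. As the measure takes in the difference between oxygen levels, these shared directions follow from how the genes were picked. For Loxl4 the nearest were Noct, Pik3cb and Spag5 (0.11, 0.12 and 0.13). For Lox they were Mmgt2, Bcr and Parva (0.039, 0.041 and 0.045), and for Loxl2 Mthfd2, Prkar2a and Ckap4 (0.051, 0.051 and 0.061). No member was among the 3 nearest genes of another.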

How the data were processed

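The authors made RNA-seq libraries from 4 hypoxia and 4 normoxia samples, ran single-end reads through zUMIs (with STAR, samtools and featureCounts; mm10 and Ensembl genes) and deposited raw read counts per gene. Whether counting used strand, introns or multiply mapped reads is not given in the sources used here. Symbols and positions were taken from GENCODE M21 (GRCm38) for 53360 of 53465 identifiers; those without a symbol held 0.0036% of the counts.

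Following the study's methods, genes were kept by filterByExpr with a minimum count of 5 (14369 genes, 99.9% of counts) and compared with limma-trend at a threshold of 0.05 after Benjamini-Hochberg adjustment (limma 3.58.1, edgeR 4.0.16, R 4.3.3). The scaling is not named there; TMM factors and log2 CPM with a prior count of 3 were used. Alternatives were the edgeR quasi-likelihood test, DESeq2 1.42.0, limma-voom, other scalings, filters and prior counts, a replicate block, a correction for GC content and length (a spline with 5 degrees of freedom for each, for 14353 genes) and leaving out each sample. Limma-trend with and without the replicate block, edgeR, DESeq2 and limma-voom were tried on simulated data. Counts were drawn from the means and library sizes of these samples, with known changes added. The GC and length correction, the permutation test and the sign-flip test were not tried in this way.

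Replicates are described as independent, and the sorted cells were divided between the oxygen levels. Deviations from the group means of samples with equal numbers correlated across genes at 0.47, 0.28, 0.25 and 0.17 for numbers 1 to 4. Correlations of unequal numbers are not given here, so these values alone do not show pairing. The numbers were taken to pair the samples, and the fits with the replicate block rest on this. No 2 replicates agreed within sampling noise. At these depths 3 counts are 0.119 to 0.233 CPM, a floor that covers counting error only.

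The family and the gene lists were chosen with earlier results of these data known, so the lists are described by counts and medians. Named were the members, the 3 most similar profiles of each, and from each list up to 3 of the largest called rises and falls, with Eln, Col1a1, Col1a2, Col3a1, Bmp1, Fn1, Atp7a, Plod2, P4ha1 and Car9 whatever their values. Other genes were named after their values were seen. Values of some listed genes are not reported here.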

Additional observations from a re-analysis of the deposited data

Results flagged for a closer look

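In 32 sets of 4 samples, 4 had a highest or lowest sample far from the rest by Dixon's test, where chance gives about 1 in 20. The gap was 0.864 of the range for Loxl2 in normoxia, where replicate 1 had 9.14 log2 CPM and the others 8.90 to 8.93. It was 0.976 for the total counts in hypoxia, where replicate 1 had 25132141. The log2 ratio of Lox to Loxl1 had a gap of 0.854 in hypoxia, with one sample at 6.18 against a group mean of 6.07, and of 0.832 in normoxia, with one at 6.81 against a mean of 6.70, and no sample of one group reached the range of the other.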

How the results depend on the processing

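Of 270 values recomputed under another setting, 244 kept their direction and side of the threshold, or a count within 1.5 times. Loxl4 was no longer called with edgeR (0.55), DESeq2 (0.55), limma-voom (0.56) or no filter (0.59), and its change ranged from 0.45 to 0.79 when each sample was left out. Loxl2 turned sign with library totals alone (0.0071) and without hypoxia replicate 1 (0.033), and ranged from -0.15 to 0.033 when each sample was left out. Lox passed with the GC and length correction, at -0.31 with and without the block. The replicate block pairs equal numbers, and under it 23.3% of all genes were higher and 22.7% lower, in place of 18.0% and 16.5%. The block moved the called genes from 6 to 11 for substrates, 7 to 12 for hydroxylation and 3 to 5 for copper supply. It also moved the member ratios called from 7 to 0, where 4 pairs cannot pass. It ended or added no call of a family member. With the block and the GC correction, 11 hydroxylation, 7 copper supply and 5 other copper enzyme genes were called in either direction. In that fit 21.5% of all genes were lower in normoxia, and the share that was higher is not given here. Without the filter 5 TGF-beta axis genes were called in place of 8. Leaving out each sample gave 3 to 9 hydroxylation genes and 4 to 9 TGF-beta axis genes. The shares of all genes called in these fits are not given here. The causes were not tested. Library totals alone moved the median of all genes from 0.0049 to 0.089, with 3611 genes higher and 1575 lower in place of 2592 and 2378. With 4 samples a group, the 95% confidence interval of the change was -0.38 to 0.11 for Lox and -0.31 to 0.14 for Loxl2. Both intervals cover 0.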
